A study of Mus musculus with 6 samples.

Results

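Small leucine-rich proteoglycans are secreted matrix proteins built from a short run of leucine-rich repeats. They were followed here as the 8 core protein genes Dcn, Bgn, Fmod, Lum, Prelp, Ogn, Aspn and Omd, which were chosen by symbol from the 46095 rows of a table of read counts. All 8 were found, and all 8 passed the filter on low counts among 16061 genes tested. The cells came from the nucleus pulposus, the gel-like core of the intervertebral disc, of mice at 8 weeks of age that are labelled male, and were freed with collagenase and grown to passage 2 in serum. The 3 genotypes were wild type, Chsy3 heterozygous and Chsy3KO (called knockout below), with 2 libraries each. All 6 libraries share the tissue, the passage and the culture medium. The sources used here do not say how the Chsy3 allele was made or whether the paired libraries came from separate animals or cultures, so each p-value reflects the spread among these 6 libraries alone, and that spread may be technical.

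These proteins coat collagen fibrils and set how thick the fibrils grow and how they are spaced. Several of them also hold growth factors such as TGF-beta in the matrix, and soluble biglycan can act on Toll-like receptors of macrophages. Decorin and biglycan carry chondroitin or dermatan sulfate chains, the kind of chain that the product of Chsy3, a chondroitin sulfate synthase, lengthens. Fibromodulin, lumican and osteomodulin carry keratan sulfate, while asporin and prolargin (the product of Prelp) are usually made without such a chain. In the disc the family accompanies collagen and the large proteoglycan aggrecan, and fragmented members accumulate with degeneration.

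Total counts lay between 29622117 and 33899611 per library, and a count of 0 would allow up to 3 counts, or 0.0880 to 0.104 CPM (counts scaled to library size with TMM factors). These limits cover counting error only. Chsy3 was read at 8.35 and 8.36 CPM in wild type, 5.79 and 6.20 in heterozygous and 3.58 and 2.23 in knockout, so that reads over the whole gene were fewer but present in the knockout. The heterozygous libraries held 0 counts of Ddx3y, Uty, Kdm5d and Eif2s3y, genes of the Y chromosome that were read in the other 4 libraries, and Xist was at 1076 CPM in heterozygous against 659 in wild type and 652 in knockout. The heterozygous libraries therefore go against their male label, and the other 4 libraries held Xist and Y-linked reads side by side, which a purely male label does not cover either. In both comparisons that use heterozygous libraries, genotype and sex-linked differences cannot be told apart. Between knockout and wild type, Ddx3y (log2 0.34 ± 0.10, SE, edgeR adjusted p = 0.00755) and Eif2s3y (log2 0.38 ± 0.12, edgeR adjusted p = 0.0117) were higher in knockout. Uty, Kdm5d and Xist were not called, and the part of the Y-linked difference in the results was not tested. Of 13 markers of nucleus pulposus, notochord and chondrocytes, 8 passed the filter, T had 0 counts and Acan 8 counts over all libraries, so the tissue name rests on the labels. In these bulk samples fewer cells of a type and less RNA per cell cannot be told apart.

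Biglycan was the dominant member in every genotype. Compared per length of the longest coding transcript, Bgn stood at 1537 ± 3.44 CPM per kb in wild type (SD, n = 2), 2092 ± 12.5 for heterozygous libraries and 1220 ± 31.2 in the knockout. Fmod followed in wild type at 260 ± 3.91 CPM per kb and Prelp at 234 ± 1.89. Dcn came next at 64.8 ± 1.19 CPM per kb, then Ogn at 49.7 ± 0.755, Aspn at 10.3 ± 0.420, Lum at 5.04 ± 0.106 and Omd at 2.58 ± 0.270. Each neighbour in this wild-type order differed by more than its spread. The place of Dcn depends on the length used, since on the union of all annotated exons it had 19.5 CPM per kb, under the 49.7 of Ogn. In knockout Prelp (362 CPM per kb) stood above Fmod (256), and Lum (10.2) above Aspn (2.01). In heterozygous libraries Lum at 15.6 ± 0.120 and Aspn at 15.4 ± 0.232 CPM per kb did not differ beyond their spread.

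Together the 8 genes took 0.568% of all counts in each wild-type library, but 0.962% and 0.955% in heterozygous ones, and 0.556% and 0.548% in those of the knockout. The knockout total was thus close to wild type while its make-up differed. Per length, Bgn made up 71.1% and 71.0% of the summed level of the family in wild type, 57.3% and 57.5% in heterozygous and 61.1% and 60.2% in knockout. Prelp made up 10.9% and 10.8% in wild type and 17.8% and 18.2% in knockout. Fmod took 11.9% and 12.2% in wild type, 19.4% and 19.0% in heterozygous and 12.6% and 12.9% in knockout.

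**Figure D1:**
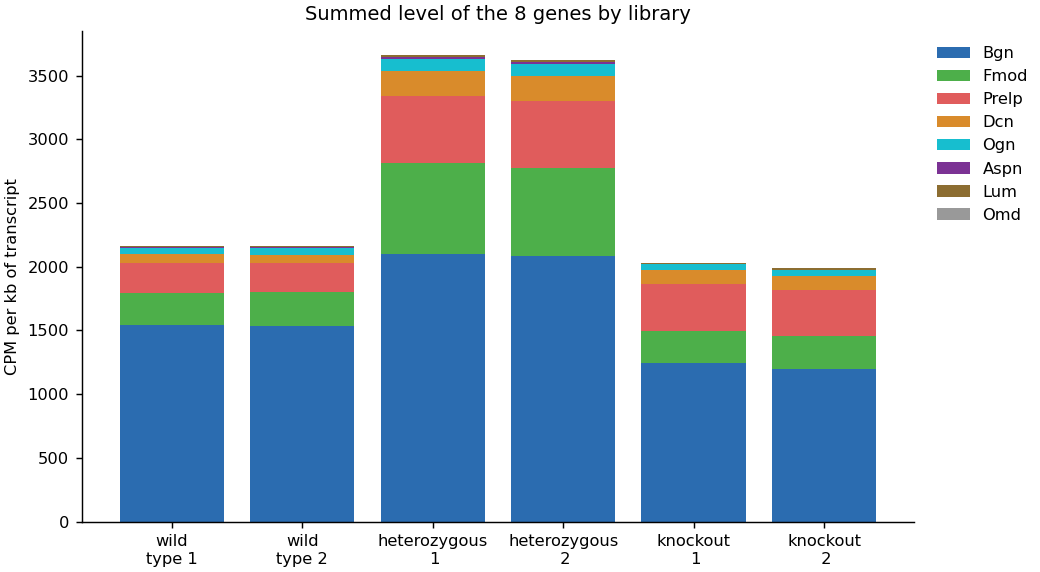
Summed level of the 8 genes in each of the 6 libraries, in CPM per kb of the longest coding transcript (y axis), with each gene as a segment of its bar. Biglycan is the largest segment in every library, and the heterozygous bars reach 3665 and 3623 against 2165 and 2162 in wild type and 2033 and 1989 in knockout.

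The contrast of knockout against wild type addresses loss of Chsy3. It split the family. Lum, Dcn and Prelp were higher in knockout, Aspn, Omd, Bgn and Ogn were lower, and Fmod did not pass the test. That is 3 members higher, beside 19.2% of all 16061 tested genes called higher, and 4 lower, beside 18.9% called lower (edgeR, quasi-likelihood, adjusted p under the threshold of 0.05). The median log2 fold change of the 8 was -0.07, and that of all tested genes -0.00309.

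The heterozygous against wild type comparison asks what goes with the loss of a single allele. In these libraries that loss cannot be told apart from the sex-linked differences given above. Here 7 of the 8 were higher and only Omd was lower, beside 19.2% of tested genes called higher and 19.7% called lower. The median log2 fold change of the members was 1.06, and that of all tested genes -0.00287. In knockout against heterozygous 7 members were lower and 0 higher at the same threshold, with Omd as the gene not called, beside 17.9% of tested genes called lower and 19.1% called higher. No member had a log2 fold change above 0 there, so a looser threshold on p could not add such a call. DESeq2 also called 0 members higher. The median of the members there was -0.77, and that of all tested genes 0.0116. Knockout and heterozygous each share a control with another comparison, so the lists of calls are not independent of each other.

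**Figure D2:**
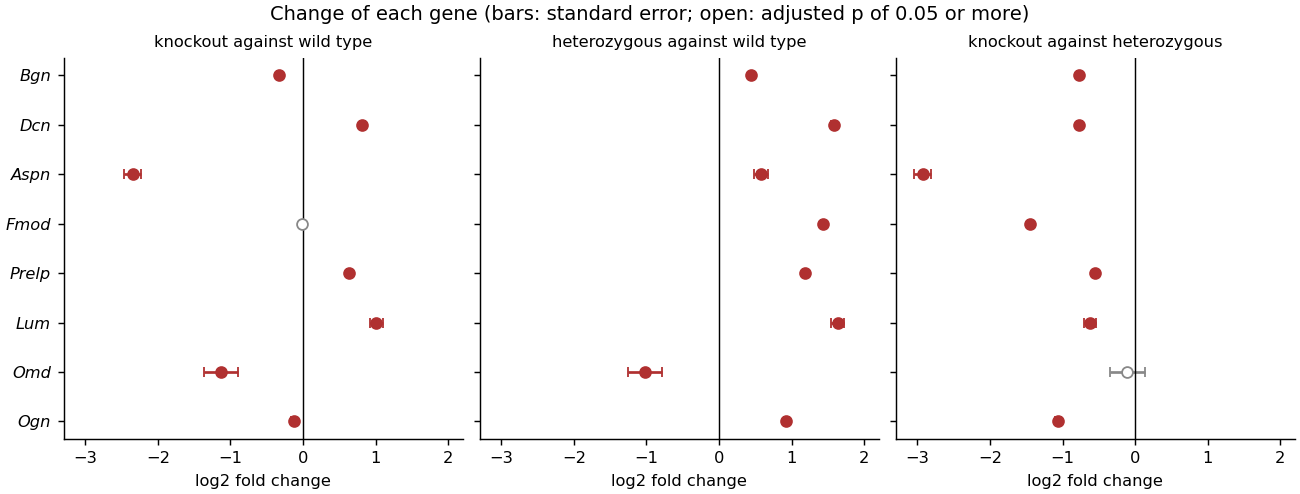
Log2 fold change of each of the 8 genes (x axis) in the 3 comparisons, with standard errors as bars and open points for an adjusted p of 0.05 or more. In heterozygous against wild type 7 points lie to the right of 0 and Omd lies to the left. In knockout against wild type the points fall on both sides.

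Among the class I members, which have the chondroitin or dermatan sulfate carriers, decorin and biglycan went apart in the knockout. Dcn, whose protein binds collagen and TGF-beta, was read at 115 and 112 CPM in wild type, 343 and 340 in heterozygous and 201 and 200 in knockout. The groups did not overlap, and wild type was lowest. With 2 libraries per genotype, a lack of overlap says little by itself, here and for the genes below. Its share over all tested genes was not counted. Dcn rose 1.76-fold in knockout over wild type (log2 0.82 ± 0.03, SE, edgeR adjusted p = 2.21e-23). It also rose in heterozygous over wild type (log2 1.58 ± 0.03, edgeR adjusted p = 5.74e-34). Knockout lay below heterozygous by a log2 difference of -0.77 ± 0.03 (edgeR adjusted p = 4.58e-23).

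Bgn, which encodes biglycan, the closest relative of decorin, was read at 3724 and 3713 CPM in wild type, 5083 and 5040 in heterozygous and 3004 and 2897 in knockout. The order of the groups thus had wild type in the middle, and no groups overlapped. Bgn fell by 0.33 on the log2 scale in knockout against wild type (SE 0.02, edgeR adjusted p = 1.02e-19) and rose by 0.45 ± 0.02 in heterozygous (edgeR adjusted p = 4.2e-24). Knockout was 1.72-fold lower than heterozygous (log2 -0.78 ± 0.02, edgeR adjusted p = 8.17e-33). Bgn is the member on the X chromosome (chrX:73483602-73495933, plus strand, GRCm38), and the heterozygous libraries are those with 0 counts of Y-linked genes. Of 511 tested X-linked genes, 130 were higher and 89 lower in heterozygous, with a median log2 fold change of 0.04 against -0.00412 for the other genes. Over all tested genes, 19.2% were called higher and 19.7% lower in that comparison. The part of sex in the rise of Bgn was not tested.

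The ratio of biglycan to decorin reads shows this shift within each library. It was 32.3 and 33.0 in wild type, 14.8 and 14.8 in heterozygous and 14.9 and 14.5 in knockout, as a ratio of CPM. Both mutant genotypes lay close together and below wild type, although in heterozygous both genes were up and in knockout Bgn was down. The ratios are given as a description, with no test.

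Aspn, which encodes asporin, a class I protein that competes with decorin for collagen and binds TGF-beta, had the largest change of the 8 in knockout. Counts were 838 and 790 in wild type, 1021 and 1150 in heterozygous and 129 and 186 in knockout. On the CPM scale this was 24.6 and 23.3, then 35.4 and 36.2, then 3.91 and 5.45. Aspn was 5.10-fold lower in knockout than in wild type (log2 -2.35 ± 0.12, SE, edgeR adjusted p = 1.78e-20) and 7.62-fold lower than in heterozygous (log2 -2.93 ± 0.12, edgeR adjusted p = 6.7e-24). It rose by 0.58 ± 0.10 log2 in heterozygous over wild type (edgeR adjusted p = 4.85e-06). The knockout libraries differed more from each other in this gene than in any other member, with a coefficient of variation of 23.2%, yet both lay far under the other 4.

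**Figure D3:**
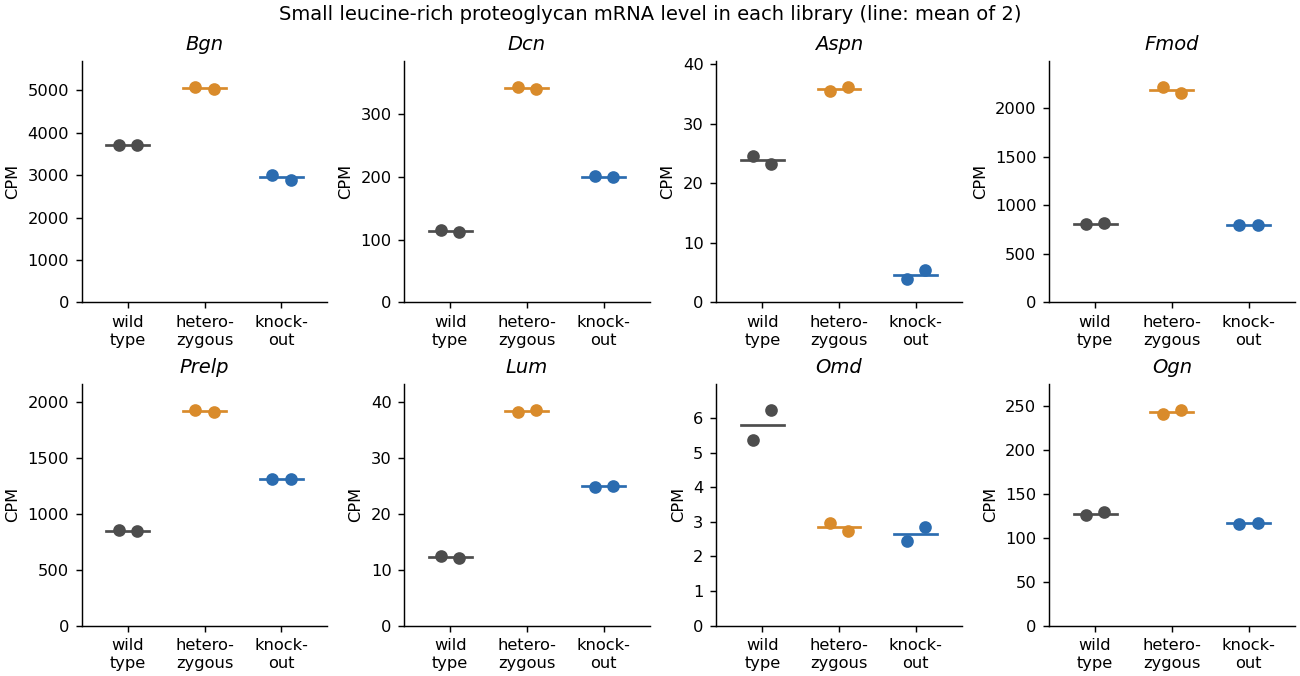
Level of each gene in CPM (y axis, from 0) in the 2 libraries of each genotype (points), with the mean as a line. The heterozygous points are the highest for 7 of the 8 genes, and Omd is highest in wild type. Aspn in knockout sits at 3.91 and 5.45 CPM, below the other genotypes.

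The keratan sulfate members of class II did not move as a block. Fmod, which encodes fibromodulin, a protein that steers collagen cross-linking, was read at 803 and 820 CPM in wild type, 2217 and 2152 in heterozygous and 800.3 and 800.5 in knockout. The heterozygous libraries stood far above the rest, and knockout lay close to wild type. Fmod rose 2.69-fold in heterozygous over wild type (log2 1.43 ± 0.02, SE, edgeR adjusted p = 1.51e-39), and knockout against wild type gave -0.02 ± 0.02 (edgeR adjusted p = 0.511). The sign of that small difference depended on the scaling, at 0.003 with library totals alone (edgeR adjusted p = 0.94). Knockout was 2.73-fold lower than heterozygous (log2 -1.45 ± 0.02, edgeR adjusted p = 1.42e-39).

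Lum encodes lumican, which shares a binding region on collagen with fibromodulin. Its counts were 426 and 413 in wild type, 1099 and 1225 in heterozygous and 817 and 853 in knockout, or 12.5 and 12.2, 38.1 and 38.5, and 24.8 and 25.0 CPM. It was lowest in wild type, with no overlap. Lum rose 2.02-fold in knockout (log2 1.013 ± 0.092, SE, edgeR adjusted p = 1.93e-12) and 3.10-fold in heterozygous (log2 1.64 ± 0.09, edgeR adjusted p = 3.33e-19). In knockout against heterozygous it fell by 0.62 on the log2 scale (SE 0.09, edgeR adjusted p = 7e-08).

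Prelp encodes prolargin, which anchors collagen to basement membranes through heparan sulfate. It was read at 851 and 842 CPM in wild type, 1925 and 1909 in heterozygous and 1309 and 1306 in knockout. The pattern followed that of Dcn and Lum, with wild type lowest and knockout between. Prelp rose 1.54-fold in knockout (log2 0.63 ± 0.02, SE, edgeR adjusted p = 2.87e-27) and 2.27-fold in heterozygous (log2 1.18 ± 0.02, edgeR adjusted p = 2.5e-37). It was 1.47-fold lower in knockout than in heterozygous (log2 -0.55 ± 0.02, edgeR adjusted p = 3.04e-25). An antisense gene, Gm15851, overlaps 9.68% of the exon bases of Prelp, and since the strand setting of the counting is not given, reads of both cannot be told apart there.

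Omd, which encodes osteomodulin, a keratan sulfate proteoglycan best known from bone, was the scarcest member and the sole gene highest in wild type. Counts were 183 and 212 in wild type, 86 and 87 in heterozygous and 81 and 97 in knockout. Both mutant genotypes lay under wild type and overlapped each other. Omd fell by 1.13 on the log2 scale in knockout (SE 0.23, edgeR adjusted p = 9.83e-05) and by 1.02 in heterozygous (SE 0.23, edgeR adjusted p = 0.000402). Knockout against heterozygous gave -0.11 ± 0.25 (edgeR adjusted p = 0.782).

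Ogn, which encodes osteoglycin (mimecan), stands for class III. It was read at 126 and 129 CPM in wild type, 241 and 245 in heterozygous and 116 and 117 in knockout. Knockout lay just under wild type without overlap, and heterozygous well above both. Ogn rose 1.91-fold in heterozygous (log2 0.93 ± 0.04, SE, edgeR adjusted p = 3.44e-24). In knockout it fell by 0.13 on the log2 scale (SE 0.04, edgeR adjusted p = 0.00604), a small change that did not pass without wild-type library 2 (edgeR adjusted p = 0.0595), and adjusted p ranged from 0.00411 to 0.0595 over 13 alternative settings. Knockout was 2.08-fold lower than heterozygous (log2 -1.06 ± 0.04, edgeR adjusted p = 5.97e-26).

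Most of these genes sit beside each other in the genome, which the choice of members did not use. Positions are from GENCODE M21 on GRCm38. On chromosome 13, Aspn (49544443 to 49567565), Omd (49582462 to 49592822) and Ogn (49608046 to 49624501) follow one another on the plus strand, with gaps of 14.9 and 15.2 kb, after their relative Ecm2. On chromosome 10, Dcn (97479609 to 97518143) is followed by Lum (97565128 to 97572703) after 47.0 kb, then by their relatives Kera and Epyc. On chromosome 1, Prelp (133910304 to 133921414, minus strand) and Fmod (134037254 to 134048277, plus strand) lie 116 kb apart. The whole trio on chromosome 13 lies within Cenpp, a centromere protein gene on the opposite strand, which shares 7 exon bases with Aspn and 0 with Omd and Ogn. Cenpp itself had between 49 and 128 counts per library, fewer than Aspn in every library. Against Omd it had fewer counts in wild type (115 and 128 against 183 and 212). It had 49 and 93 against 86 and 87 in heterozygous, and slightly more than Omd in knockout (82 and 112 against 81 and 97).

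Neighbours did not share a pattern everywhere. The 3 genes on chromosome 13 had 3 different ones: the log2 ratio of Aspn to Ogn was -2.36 and -2.47 in wild type, -2.77 and -2.76 in heterozygous and -4.89 and -4.43 in knockout. The log2 ratio of Omd to Ogn was -4.55 and -4.37 in wild type, -6.34 and -6.49 in heterozygous and -5.56 and -5.36 in knockout. The neighbours Lum and Dcn kept their proportion more closely, at a log2 ratio of -3.20 and -3.21, -3.17 and -3.14, and -3.02 and -3.00. Prelp and Fmod on chromosome 1 went apart in knockout, where their log2 ratio was 0.71 and 0.71, against 0.08 and 0.04 in wild type and -0.20 and -0.17 in heterozygous. Ecm2, next to Aspn, was read at 0.735 and 0.383 CPM in wild type, 2.32 and 3.11 in heterozygous and 1.06 and 1.11 in knockout, and rose in heterozygous (log2 2.28 ± 0.43, SE, edgeR adjusted p = 3.2e-05).

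**Figure D4:**
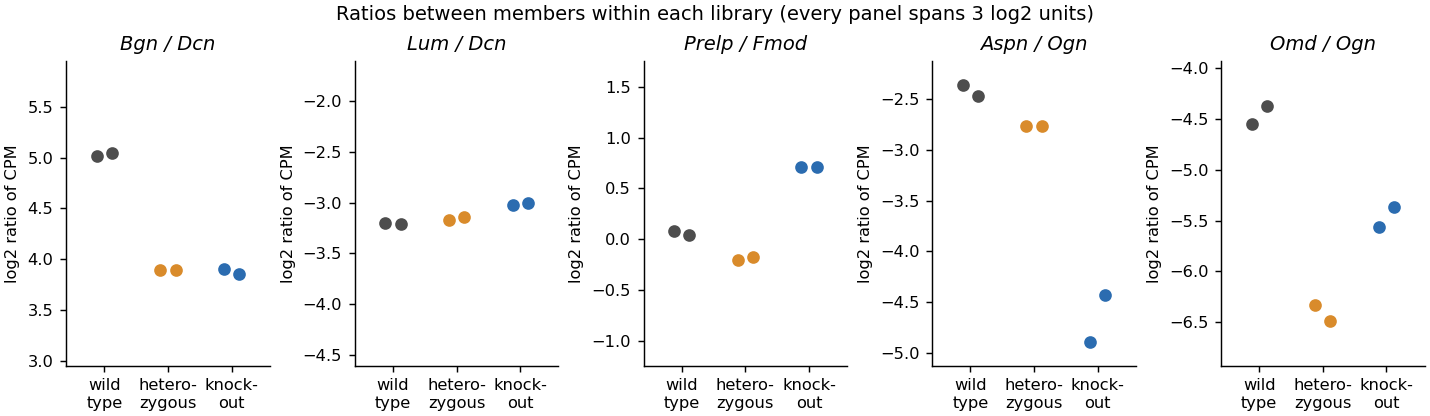
Log2 ratio of CPM between pairs of members (y axis) in the 2 libraries of each genotype (points), with every panel spanning 3 log2 units. The ratio of Bgn to Dcn was lower in both mutant genotypes than in wild type, that of Lum to Dcn moved least, and the ratio to their neighbour Ogn was lowest in knockout for Aspn and in heterozygous for Omd.

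Promoter sequence was matched by symbol for 6 of the 8 members (RefSeq, GRCm38.p6), all but Dcn and Lum. The 250 bases before the RefSeq start site are given for the neighbours whose levels went apart, on chromosomes 13 and 1, each read 5′ to 3′ on the strand of its gene. Capitals mark matches on either strand to any of 6 short motifs. Searched were TATAAA for the box bound by the TATA-binding protein, CCAAT for the box bound by the factor NF-Y, and GGGCGG for the box bound by Sp proteins. Searched too were TGANTCA for the element bound by Jun and Fos, CAGACA for the element bound by Smad proteins, and GGAATG for the element bound by Tead proteins. They lie at chr13:49544193-49544442 for Aspn, chr13:49582212-49582461 for Omd, chr13:49607765-49608014 for Ogn, chr1:133921402-133921651 (minus strand) for Prelp and chr1:134037004-134037253 for Fmod. The RefSeq start is the GENCODE start printed above for Aspn, Omd and Fmod, but lies 31 bases upstream of it for Ogn and 13 bases inside the GENCODE gene for Prelp, and distances below are from the RefSeq start.
Aspn: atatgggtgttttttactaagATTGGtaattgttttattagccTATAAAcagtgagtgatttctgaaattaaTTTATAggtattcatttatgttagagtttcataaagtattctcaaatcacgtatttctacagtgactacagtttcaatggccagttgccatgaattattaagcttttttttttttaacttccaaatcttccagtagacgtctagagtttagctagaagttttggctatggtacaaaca
Omd: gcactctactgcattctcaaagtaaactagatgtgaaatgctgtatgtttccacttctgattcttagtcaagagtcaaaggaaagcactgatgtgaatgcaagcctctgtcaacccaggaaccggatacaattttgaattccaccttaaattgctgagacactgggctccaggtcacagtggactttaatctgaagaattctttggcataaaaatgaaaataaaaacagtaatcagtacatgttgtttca
Ogn: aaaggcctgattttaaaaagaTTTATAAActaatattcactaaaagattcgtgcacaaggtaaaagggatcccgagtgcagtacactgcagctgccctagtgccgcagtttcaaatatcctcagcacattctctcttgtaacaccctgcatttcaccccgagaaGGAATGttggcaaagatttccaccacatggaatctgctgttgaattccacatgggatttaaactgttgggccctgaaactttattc
Prelp: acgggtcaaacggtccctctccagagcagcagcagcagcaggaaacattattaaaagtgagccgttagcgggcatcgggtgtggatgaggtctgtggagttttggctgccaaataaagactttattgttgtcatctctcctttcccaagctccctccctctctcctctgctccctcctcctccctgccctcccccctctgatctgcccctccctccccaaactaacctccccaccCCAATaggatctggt
Fmod: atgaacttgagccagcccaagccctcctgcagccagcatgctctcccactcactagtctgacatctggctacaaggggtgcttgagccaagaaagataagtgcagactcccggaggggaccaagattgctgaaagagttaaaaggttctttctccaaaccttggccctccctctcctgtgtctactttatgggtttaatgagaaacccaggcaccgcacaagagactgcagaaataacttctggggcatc

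The windows differ in base composition and in these letters. GC content was 30.0% for Aspn, 38.4% for Omd, 42.0% for Ogn, 55.6% for Prelp, 51.2% for Fmod and 64.4% for Bgn, against a median of 52.4% over 32851 promoter windows. TATAAA was found in the windows of Aspn and Ogn and in 12.4% of all windows. In Ogn its matches on both strands overlap, and they lie far upstream, as do those of Aspn (the nearest begins 178 bases before the start). GGAATG was found in Ogn, 86 bases before the start, and in 12.6% of all windows. CCAAT was found in Aspn and Prelp (33.8% of all windows), and GGGCGG in Bgn alone of the 6, at 3 places of which 2 overlap (32.7% of all windows). Matches to TGANTCA (6.75% of all windows) and CAGACA (17.1%) were found in none of the 6. These are matches of letters and not measured binding.

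The family's partners were described from lists of genes. The counts of each list, here and below, stand beside the shares of all tested genes called (edgeR). In knockout against wild type these were 19.2% higher and 18.9% lower. They were 19.2% and 19.7% in heterozygous against wild type, and 19.1% and 17.9% in knockout against heterozygous. The medians over all tested genes were -0.00309, -0.00287 and 0.0116 log2. The collagens that these proteins bind fell almost as one in knockout, where 12 of 13 were lower and 0 higher, with a median log2 fold change of -0.68 (edgeR). The one not called was Col2a1 at -0.10 ± 0.11 log2. The 4 with the smallest p-values were Col1a1 and Col1a2, the chains of the main fibrillar collagen, at -0.97 and -0.68 log2, Col6a3, a chain of the pericellular collagen VI, at -1.43, and Col5a1, which starts fibrils, at -0.93. In heterozygous over wild type 9 of 13 were higher and 4 lower (median 0.22). The smallest p-values there were those of Col3a1 at 0.55, Col12a1 at 0.59, Col11a1 at 0.59 and Col5a2 at 0.36 log2. By size the largest rise was that of Col5a3 at 0.67 log2 and the largest fall that of Col2a1 at -2.01, both named after their values were seen. Knockout against heterozygous had 12 lower and 1 higher (median -1.01). Dcn, Lum and Prelp were thus higher in knockout than in wild type in the same libraries in which 12 of these 13 collagen genes were lower.

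**Figure D5:**
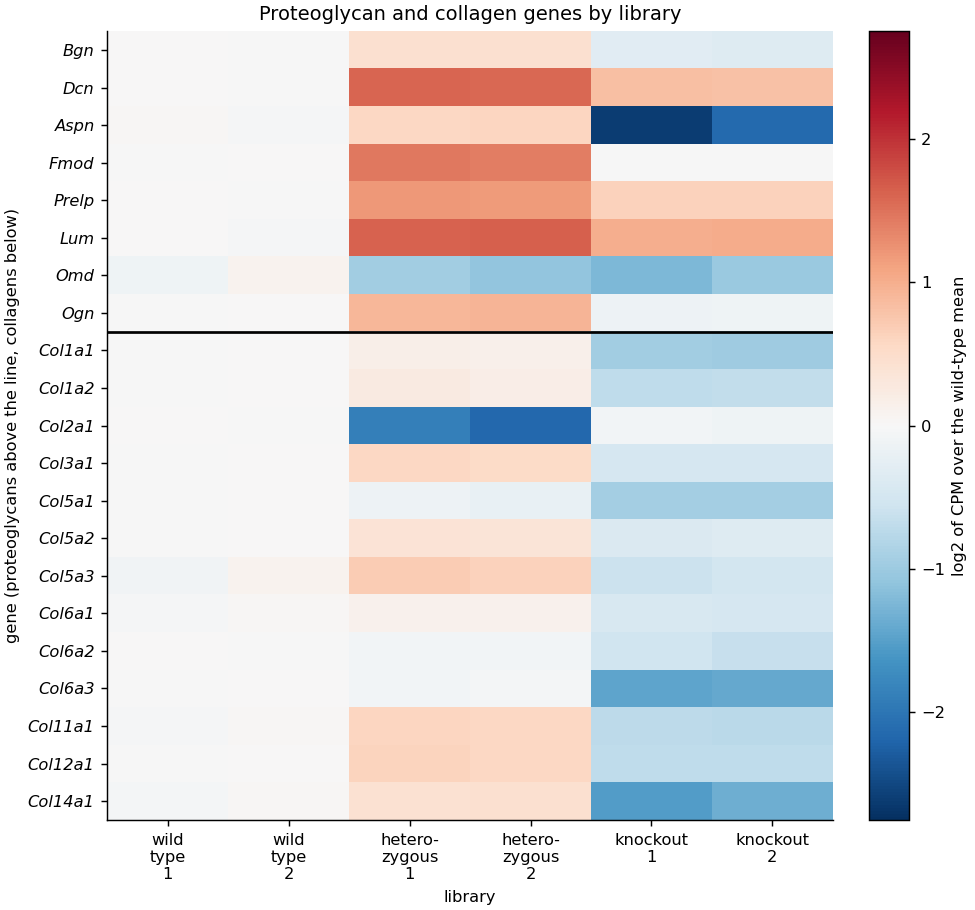
Log2 of CPM over the wild-type mean (colour) for the 8 proteoglycan genes and 13 collagen genes (rows) in the 6 libraries (columns). In the knockout columns the collagens are blue, with Col2a1, the one not called, only faintly so, while Dcn, Lum and Prelp are red and Aspn is the darkest blue of the 8 members. Col2a1 is dark blue in heterozygous.

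The other leucine-rich repeat genes of the family were mostly scarce. Of 11 listed, 7 passed the filter, and 1 was higher and 2 lower in knockout against wild type, 1 higher and 1 lower in heterozygous. Podn, which encodes podocan, was the clearest, at 51.8 ± 3.28 CPM in wild type (SD, n = 2), 34.2 ± 0.540 for heterozygous libraries and 11.3 ± 0.232 in the knockout. It was 4.57-fold lower in knockout than in wild type (log2 -2.19 ± 0.09, SE, edgeR adjusted p = 8.45e-25). Its relative Podnl1 went the other way, from 2.85 to 10.8 CPM (log2 1.92 ± 0.19, edgeR adjusted p = 2.54e-11). Chadl was at -1.30 ± 0.46 log2 (edgeR adjusted p = 0.0219), and Ecm2 at 0.96 ± 0.45 did not pass (edgeR adjusted p = 0.0917).

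Enzymes that build the sugar chains also went both ways. Of 21 tested genes of chondroitin and dermatan sulfate synthesis, 9 were lower in knockout than in wild type and 2 higher (median log2 -0.15), and in heterozygous 7 were lower and 8 higher (median 0.05). These counts hold Chsy3 itself, and without it 8 of 20 were lower and 2 higher in knockout (median -0.14), and 6 lower and 8 higher in heterozygous (median 0.06). In knockout the smallest p-values were those of the polymerizing genes Chsy1 (-0.71 log2), Chpf2 (-0.46) and Chpf (-0.29) and of Csgalnact1, which begins the chain (-0.55). Dse, which encodes the epimerase that turns chondroitin into dermatan sulfate, was at -0.18 ± 0.04 log2 in knockout (edgeR adjusted p = 7.74e-05) and is named here after its value was seen. Of 6 tested genes for keratan sulfate, the chain of Fmod and Lum, 2 were higher and 2 lower in knockout. Chst1, the galactose sulfotransferase of that chain, was higher (0.87 ± 0.12 log2, edgeR adjusted p = 6.22e-08), as was B3gnt2 (0.23 log2), while Chst2 was at -0.95 and B4galt4 at -0.54.

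Receptors and growth factors known to bind the family were split, with 5 higher and 8 lower of 15 in knockout against wild type and 6 and 6 in heterozygous. Tlr4, a receptor for soluble biglycan, rose by 0.91 ± 0.05 log2 in knockout (SE, edgeR adjusted p = 2.18e-19) and by 0.55 ± 0.05 in heterozygous (edgeR adjusted p = 4.74e-12). Of the TGF-beta ligands that decorin and asporin bind, Tgfb1 rose by 0.52 log2 in knockout, while Tgfb3 (-0.62 log2) and Tgfb2 (-0.96 log2) fell (edgeR adjusted p at most 2.07e-13). Wisp1, whose protein binds decorin and biglycan, was at -1.62 log2. In heterozygous the smallest p-values were those of Lrp1, an uptake receptor for decorin (0.37 log2), of Tgfb2 (-1.27), Wisp1 (-0.66) and Tlr4.

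Proteases that cut these proteins were 4 higher and 6 lower of 12 tested in knockout against wild type, and 6 and 5 in heterozygous. Adamts5, an aggrecanase, was read at 378 and 393 CPM in wild type, 896 and 882 for heterozygous libraries and 608 and 619 in the knockout. Mmp13, a collagenase that cleaves fibromodulin and biglycan, was at 33.1, 98.2 and 80.2 CPM, and Mmp2 at 203, 429 and 322 CPM. All 3 were higher in both mutant genotypes than in wild type (edgeR adjusted p at most 3.35e-22). Mmp14 was at -0.37 log2 in knockout and -0.10 in heterozygous. In heterozygous the fourth gene by p-value was Adamts1, at 0.66 log2.

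Markers of other cells moved with the genotypes, and their part in the results on these proteoglycans was not tested. Of 4 markers of tendon and annulus, 4 were higher in heterozygous than in wild type, while 0 were higher and 2 lower in knockout. They summed to 13.4 to 15.2 CPM in wild type, 136 to 145 in heterozygous and 8.37 to 9.97 in knockout, with none at 0. Most of the rise in heterozygous was in Thbs4, at 2.12 and 2.29 CPM in wild type and 106 and 101 in heterozygous. The other 3 markers summed to 11.3 to 12.9 CPM in wild type, 34.7 to 38.7 in heterozygous and 7.80 to 8.47 in knockout. Fibroblast markers were 6 higher and 1 lower of 9 tested in heterozygous and 2 higher and 6 lower in knockout, with summed levels of 22403 to 22835 CPM in wild type, 28438 to 29149 in heterozygous and 13239 to 13307 in knockout, and Tcf21 at 0. That list shares Col1a1, Col1a2 and Col3a1 with the collagens. Nucleus pulposus, notochord and chondrocyte markers were 3 higher and 3 lower of 8 tested in heterozygous and 2 higher and 2 lower in knockout. They summed to 95.6 to 100.4 CPM in wild type, 323 to 334 in heterozygous and 139 to 145 in knockout, with T at 0. Without Comp, a matrix protein of cartilage and tendon, the list summed to 68.2 to 70.4 CPM in wild type, 75.7 to 77.3 in heterozygous and 57.7 to 58.9 in knockout. In heterozygous Sox9 rose with Comp, while Col2a1 (22.8 to 5.65 CPM), Krt19 (15.8 to 0.759) and Cd24a (13.3 to 6.42) fell (edgeR adjusted p at most 5.61e-08). Car3 of the same list was also higher there, at 0.235 and 0.441 CPM in wild type and 3.92 and 4.34 in heterozygous. Macrophage markers were 7 higher and 0 lower of 9 in knockout and 6 higher and 1 lower in heterozygous. They summed to 11012 to 11218 CPM in wild type, 14213 to 14226 in heterozygous and 12945 to 13062 in knockout, with none at 0. All 8 adipocyte markers were higher in both mutant genotypes, at 209 to 212 CPM in wild type, 389 to 392 in heterozygous and 508 to 512 in knockout, with none at 0. Smooth muscle and pericyte markers were 4 lower and 0 higher of 6 in knockout and 4 lower and 1 higher in heterozygous. They summed to 3735 to 3800 CPM in wild type, 2602 to 2624 in heterozygous and 2152 to 2186 in knockout.

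The scarcer marker lists moved as well. Osteoblast markers were 2 higher and 2 lower of 4 tested in knockout against wild type and 0 higher and 2 lower in heterozygous, with summed levels of 47.2 to 51.5 CPM in wild type, 41.5 to 44.2 in heterozygous and 53.9 to 56.4 in knockout. Ibsp, the bone sialoprotein gene, was at 2.62 and 3.88 CPM in wild type, 0.520 and 0.661 in heterozygous and 0.0910 and 0.264 in knockout. Alpl of the same list went the other way in knockout. It was at 9.11 and 10.3 CPM in wild type, 7.14 and 7.45 in heterozygous and 28.6 and 29.9 in knockout. Endothelial markers were 2 higher and 1 lower of 4 tested in knockout and 1 higher and 2 lower in heterozygous, with summed levels of 13.9 to 14.9 CPM, 20.5 to 21.3 and 7.46 to 7.71 for wild type, knockout and heterozygous. Meningeal fibroblast markers were 1 higher and 1 lower of 4 tested in knockout and 0 higher and 2 lower in heterozygous, and summed to 57.7 to 60.3 CPM in wild type, 34.2 to 35.2 in heterozygous and 45.3 to 50.9 in knockout. Among them Slc4a10 was at 26.0 and 28.5 CPM in wild type and under 1 CPM in the other 4 libraries.

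Genes with the most similar pattern were sought outside the members, by Pearson's r of log2 CPM over the 6 libraries among 9634 genes. The 6 libraries fall into 3 tight groups, so such values are a description only, and between 15 and 60 genes reached an r of at least 0.99 for a given member. For Dcn the nearest were Nsg1 (0.9992) and Mme, which encodes the membrane protease neprilysin (0.9988), and for Prelp they were Mme (0.9995) and Nsg1 (0.9992). Asph (0.9998) and Tns3 (0.9995) were nearest to Lum, Aff2 (0.9995) and Gria3 (0.9994) to Bgn, and Wdr19 (0.9999) and F13a1 (0.9993) to Ogn. Kif26b (0.9990) and Ank2 (0.9982) were nearest to Aspn, and Cdv3 (0.9974) and Xpnpep1 (0.9972) to Omd. For Fmod they were Xist and Susd2 (0.9994 each), so the gene nearest to Fmod was one that sets the heterozygous libraries apart by sex-linked reads, and the part of sex was not tested. Among the members, r was 0.993 for Dcn with Lum, 0.995 for Lum with Prelp and 0.994 for Fmod with Ogn, against 0.168 for Dcn with Aspn and -0.816 for Dcn with Omd.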

How the data were processed

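RNA of cultured cells was sequenced in 6 libraries. Per the submitters' processing notes the reads were handled with HISAT2 2.0.4 and genome build GRCm38. For the counting tool, its annotation and its strand option: not given in the sources used here. The deposited counts are whole numbers per gene symbol that the authors did not normalize, judged from the values, in 1 column per library, with 0 entries that name no gene.

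The counts were fitted with edgeR 4.0.16 under R 4.3.3, with TMM scaling, the default filter by group (16061 genes) and 1 robust quasi-likelihood fit of all 6 libraries with 3 residual degrees of freedom. Tests were two-sided, with Benjamini-Hochberg adjustment over all tested genes and a threshold of 0.05. A standard error (SE) is the log2 fold change over the root of F. The code was run on simulated counts with differences set in knockout and the same dispersion for every gene. That dispersion was not estimated from these data, so the run checks the code and not the calls reported here. The 2 libraries of each genotype differed beyond sampling noise (chi-square per degree of freedom 3.58 to 3.70).

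The members and gene lists were chosen with earlier results of these data known. All 8 members are named, as are genes among the 4 smallest p-values of a pathway list and the 2 genes most like each member. The latter come from genes outside the members that average 3 log2 CPM or more. Transcript lengths and positions come from GENCODE M21. Alternatives were RLE scaling, library totals alone, DESeq2 1.42.0, no filter, at least 1 CPM in 4 libraries, only the libraries compared, the replicate block, and leaving out each library.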

Additional observations from a re-analysis of the deposited data

How the results depend on the processing

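Each of the 24 changes (8 genes in 3 comparisons) was recomputed under 13 alternatives, and 310 of these 312 values kept their direction and their side of the threshold. The exceptions were Fmod in knockout against wild type, which was at 0.003 log2 with library totals alone against -0.02, a difference that was called under neither, and Ogn in the same comparison, which missed the threshold without wild-type library 2 (log2 -0.12, edgeR adjusted p = 0.0595). The numbers of members called higher or lower stayed within 1.5 times in every alternative, as did the numbers of all tested genes. With the replicate block, 3 members were higher and 4 lower in knockout against wild type, and the block changed no call of a member. Same-numbered libraries did not deviate together (correlations of -0.0246, 0.00922 and 0.0222 over 16061 genes). Much of such deviation can be counting noise, so these values do not settle whether same-numbered libraries have a handling step in common. Depth limits Omd most, with 81 to 212 counts per library. With 2 libraries per genotype, and heterozygous libraries that differ from the others in sex-linked genes, the comparisons with heterozygous hold for these libraries.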
